A study of Mus musculus with 32 samples.

Results

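The 10 genes described here, across brain development and between genotypes, are the 4 genes of the AMPA receptor subunits (Gria1, Gria2, Gria3, Gria4) and 6 genes of the NMDA receptor subunits (Grin1, Grin2a, Grin2b, Grin2c, Grin2d, Grin3a). They were chosen by name, as the 10 symbols of these 2 families, out of 55291 symbols in the count tables, and all 10 were present in every table. The libraries came from whole brains of C57BL/6J mice, either wild type (WT, Dhcr7+/+) or Dhcr7 knockout (KO, Dhcr7-/-), taken at the embryonic stages E12.5, E14.5 and E16.5 (days of gestation) or at birth (postnatal day 0, PND0). There were 8 groups of 4 libraries, 32 in all. Dhcr7 makes 7-dehydrocholesterol reductase, with which the synthesis of cholesterol ends, and mice without it serve as a model of Smith-Lemli-Opitz syndrome. All groups shared the strain and the tissue, and the labels name no tissue-specific driver for the knockout. The labels name neither sex nor litter, and do not say whether a library came from 1 brain or from a pool, so the p-values below measure the spread between these libraries.

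AMPA and NMDA receptors are tetrameric cation channels that open when glutamate binds, and together they carry most fast excitatory transmission in the brain. AMPA receptors give the fast current. A receptor that holds the Gria2 product (GluA2) passes little calcium, because the Gria2 transcript is edited by the enzyme ADAR2 so that a pore glutamine is read as arginine. NMDA receptors need the obligatory Grin1 product (GluN1) together with GluN2 subunits (Grin2a to Grin2d), which set the speed and the magnesium block of the channel, or with GluN3A (Grin3a), which lowers the calcium flow. In the rodent brain Grin2b and Grin2d are known as the early GluN2 genes, and Grin2a and Grin2c as genes of the postnatal brain.

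The pore loop holds the codon that sets which ions pass. The coding DNA around the selectivity codon is given for 2 AMPA and 2 NMDA genes, from the GENCODE M21 reference transcripts (GRCm38), 5′ to 3′ on the coding strand, with the selectivity codon in capitals and 21 bases on each side.
Gria2: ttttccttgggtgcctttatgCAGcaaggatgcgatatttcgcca
Gria4: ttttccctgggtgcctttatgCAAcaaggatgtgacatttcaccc
Grin1: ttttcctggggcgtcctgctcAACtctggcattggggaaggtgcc
Grin2d: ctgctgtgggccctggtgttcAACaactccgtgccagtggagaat
The Gria2 stretch lies at chr3:80706890-80706934 on the minus strand, in exon 11 of 16 of the transcript Gria2-201. Its glutamine codon is the one that RNA editing changes in the animal. The Gria4 stretch, at chr9:4464116-4464160 (minus strand, exon 12 of 17 of Gria4-201), also has a glutamine codon and differs from that of Gria2 at 6 of 45 bases. The 2 NMDA genes have an asparagine codon there. The Grin1 stretch spans an intron, from chr2:25297292-25297409 (minus strand, exons 13 and 14 of Grin1-201), and the Grin2d stretch lies at chr7:45854372-45854416 (minus strand, exon 8 of Grin2d-201). Grin1 and Grin2d differed at 27 of the 45 bases. Between the families the differences were 26 (Gria2 and Grin1), 25 (Gria4 and Grin1), 35 (Gria2 and Grin2d) and 37 (Gria4 and Grin2d), so over these bases Grin1 was about as far from Grin2d as from the AMPA pair. The genes lie on 9 chromosomes of GRCm38 (GENCODE M21). The AMPA genes are Gria1 (chr11:57011387-57330244, plus strand), Gria2 (chr3:80681450-80802835, minus), Gria3 (chrX:41400854-41678601, plus) and Gria4 (chr9:4417896-4796234, minus). The NMDA genes, all on the minus strand, are Grin1 (chr2:25291181-25319187), Grin2a (chr16:9567898-9995560), Grin2b (chr6:135713233-136173511), Grin2c (chr11:115249169-115267243), Grin2d (chr7:45831883-45878378) and Grin3a (chr4:49661611-49845744). Counts per gene carry no information on editing, so the edited share of Gria2 RNA was not measured.

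Libraries held 13868087 to 28318857 counts. Where a library has 0 counts of a gene, up to 3 counts remain possible, or 0.106 to 0.216 CPM (the usual depth-scaled count, with TMM over the 32 libraries), which covers counting error only. Dhcr7 checked the labels: it was lower in KO at every stage, by 1.64, 2.40, 1.88 and 2.63 on the log2 scale in order of stage. The ribosomal RNA gene CT010467.1 took 0.191 to 0.376% of counts at E12.5, except for 5.64% in KO replicate 1, and 0.356 to 0.626% at E16.5, except for 3.75% in WT replicate 1. It took 0.869 to 2.68% at E14.5 and 1.16 to 2.79% at PND0. Each stage was deposited as its own table, so stage and table cannot be told apart in any comparison of stages. In bulk tissue, fewer cells of a type and less RNA per cell cannot be told apart either. Neuronal markers were present in every library: the summed CPM of 8 postmitotic neuron markers ran from 2547 to 7304 over the 32 libraries.

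Levels of the 10 subunits in WT brain climbed over the 4 stages. All 10 were higher at PND0 than at E12.5 past the threshold (edgeR quasi-likelihood test, Benjamini-Hochberg adjusted p under 0.05 over all genes tested), where 34.5% of all 17681 genes tested were higher and 36.4% lower. The rise ran from 1.12 on the log2 scale for Gria2 to 4.09 for Grin1. Its median was 3.32 over the 10 subunits, 1.95 over the 4 AMPA genes and 3.47 over the 6 NMDA genes, against -0.05 over all genes tested. Neural progenitor markers moved the other way, with 8 of 8 lower and a median of -1.96, and postmitotic neuron markers moved with the subunits, with 8 of 8 higher and a median of 1.49. The part of a changing cell makeup in the subunits' rise was not tested.

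**Figure D1:**
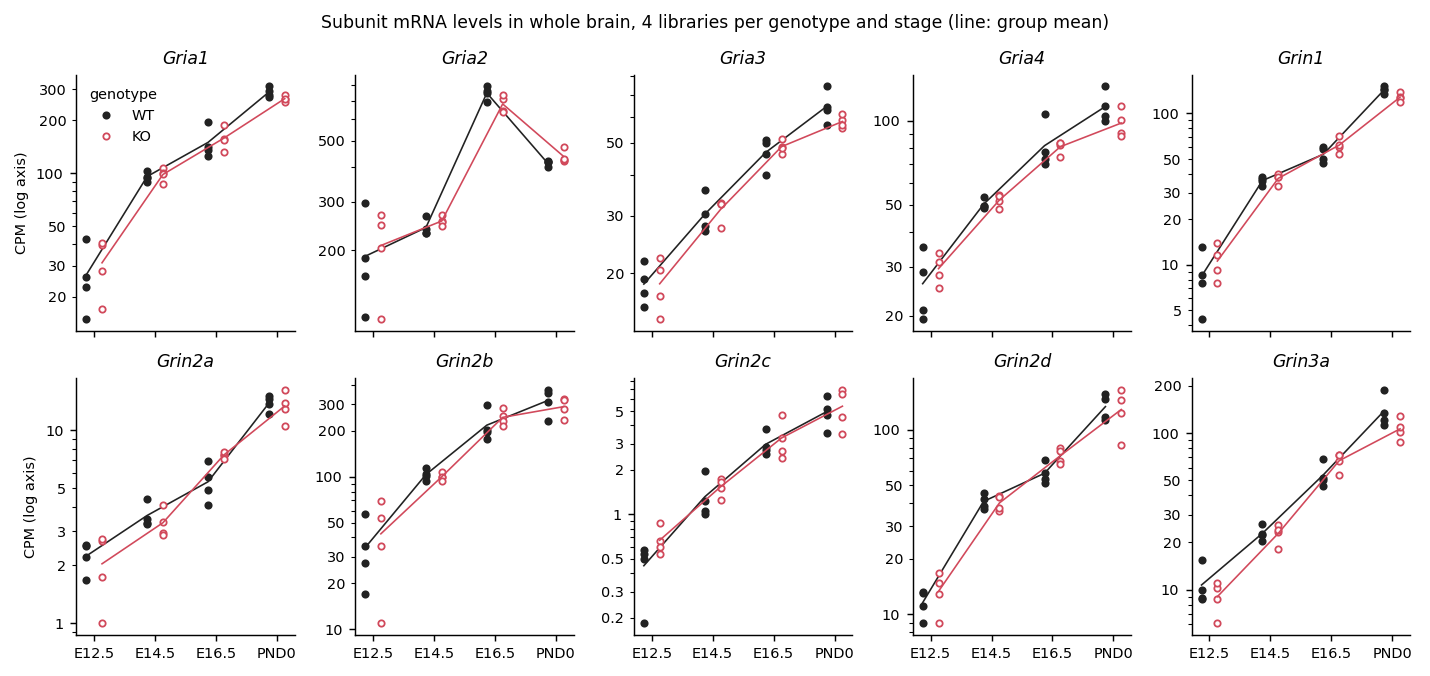
Levels of each subunit gene in every library, in CPM scaled over the 32 libraries (vertical axis, logarithmic) by stage (horizontal axis). Filled points are WT, open points KO, and lines join the means of the 4 libraries of a group. The means of 9 genes climb at each stage in both genotypes, whereas Gria2 peaks at E16.5 at a WT mean of 745 CPM and falls to 414 CPM at PND0.

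Gria2 encodes the subunit that keeps AMPA receptors tight to calcium, and its course in WT had a peak. It measured 115, 162, 297 and 187 CPM in replicates 1 to 4 at E12.5, and 240, 267, 232 and 230 CPM at E14.5. At E16.5 the 4 WT libraries were at 743, 759, 789 and 691 CPM, and at PND0 at 400.0, 418, 418 and 421 CPM. The E12.5 and E14.5 libraries overlapped, the E16.5 libraries stood above all the others, and the PND0 libraries lay between. The step from E12.5 to E14.5 was 0.34 (SE 0.24, adjusted p = 0.266) and became 0.64 (adjusted p = 0.0091) without WT E12.5 replicate 3, the library with the highest Gria2 level of its group. From E14.5 to E16.5 it rose by 1.63 (SE 0.06, adjusted p = 6.45e-11), and from E16.5 to PND0 it fell by 0.90 (SE 0.07, adjusted p = 2.05e-07). The median ribosomal RNA share in WT was low at E12.5 and E16.5 and high at E14.5 and PND0, so Gria2 moved opposite to it at the last 2 steps but not at the first, and its part in the Gria2 pattern was not tested. WT E16.5 replicate 1, whose ribosomal RNA share was 3.75%, had a Gria2 level of 743 CPM, within the range of the other 3 libraries of its group. Comparisons added after seeing the data joined the stages of low and those of high median ribosomal RNA share. Gria2 rose by 1.99 (SE 0.24, adjusted p = 0.000107) from E12.5 to E16.5 and by 0.76 (SE 0.06, adjusted p = 8.74e-09) from E14.5 to PND0. Ribosomal RNA was not equal within these pairs. WT libraries held 1.04 to 1.17% at E14.5 and 1.80 to 2.79% at PND0. They held 0.267 to 0.376% at E12.5 and, apart from replicate 1, 0.356 to 0.626% at E16.5.

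Gria1 encodes GluA1, the subunit known for its activity-dependent delivery to synapses, and it rose at each step. The 4 WT libraries measured 14.8, 22.7, 42.6 and 25.9 CPM at E12.5, then 96.0, 104, 89.7 and 94.7 CPM at E14.5. They measured 196, 142, 136 and 126 CPM at E16.5 and 313, 294, 273 and 280 CPM at PND0. No libraries of neighbouring stages overlapped. The steps were 1.84 (SE 0.26), 0.65 (SE 0.13) and 0.89 (SE 0.12), with adjusted p = 0.000466, 0.00371 and 2.82e-05.

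Gria3 and Gria4 encode the other AMPA subunits, and both rose at each step, by less than Gria1 over the whole course. Gria3 went from 18.5 ± 2.59 CPM (SD, n = 4) at E12.5 through 30.3 ± 3.97 and 46.8 ± 4.95 to 64.7 ± 7.46 CPM at PND0. Gria4 went from 26.1 ± 7.29 through 50.2 ± 2.12 and 81.5 ± 16.6 to 113 ± 14.8 CPM. From E12.5 to PND0 these are rises of 1.80 (SE 0.12) and 2.10 (SE 0.17). The last step of Gria4 was 0.41 (adjusted p = 0.0229) and missed the threshold without WT E16.5 replicate 1, 3 or 4 or without WT PND0 replicate 3, with adjusted p = 0.0503, 0.0669, 0.0628 and 0.0644.

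Grin1 is the gene of the obligatory NMDA subunit. The WT libraries measured 4.36, 7.55, 13.2 and 8.52 CPM at E12.5, and 37.1, 37.9, 33.1 and 36.0 CPM at E14.5. They measured 57.9, 59.9, 50.2 and 46.9 CPM at E16.5 and 135, 151, 145.3 and 142 CPM at PND0. The stages did not overlap, and the rise of 4.09 (SE 0.24, adjusted p = 1.48e-07) from E12.5 to PND0 was the highest fitted among the 10 genes. An antisense gene, Grin1os, overlaps Grin1, and the setting of strand in the authors' counting is not given in the sources used here, so reads of the pair may not be separated. Grin1os was at 0.239 to 1.62 CPM in the WT libraries at E12.5 and 5.56 to 8.29 CPM at PND0.

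Among the GluN2 genes, the subunits that set channel speed, Grin2b and Grin2d were the abundant pair. Grin2b, the main GluN2 gene of the embryonic forebrain, measured 17.0, 27.3, 57.3 and 35.1 CPM at E12.5 in WT, and 355, 309, 372 and 231 CPM at PND0. Grin2d, known from the diencephalon and brainstem and from interneurons, measured 11.1, 9.03, 12.99 and 13.2 CPM at E12.5, and 118, 156, 147 and 113 CPM at PND0. Both rose at PND0 over E12.5, by 3.21 (SE 0.31) and 3.52 (SE 0.15). The last step of Grin2b, from 218 ± 52.0 CPM at E16.5 to 317 ± 63.1 CPM at PND0, was 0.48 (SE 0.19, adjusted p = 0.0552), and became 0.66 (adjusted p = 0.00156) without WT E16.5 replicate 1 and 0.60 (adjusted p = 0.0115) without WT PND0 replicate 4. Grin2d overlaps the neighbouring gene Kdelr1 on the other strand, with the same reserve on strand as for Grin1.

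Grin2a and Grin2c, the genes of the postnatal GluN2 subunits, were the lowest of the 10 per length at all 4 stages in CPM per kb of exon. Grin2a had 28 to 70 counts per WT library at E12.5 (2.23 ± 0.401 CPM) and 224 to 259 at PND0 (13.8 ± 1.27 CPM). Grin2c had 3 to 14 counts per WT library at E12.5 (0.450 ± 0.180 CPM, with WT replicate 2 at the floor of 3 counts) and at least 63 at PND0 (4.95 ± 1.15 CPM). Their rises from E12.5 to PND0 were 2.62 (SE 0.17) and 3.42 (SE 0.33). The last step of Grin2c was 0.68 (adjusted p = 0.0195) and missed the threshold without WT E16.5 replicate 4 or WT PND0 replicate 4, with adjusted p = 0.0602 and 0.0625.

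Grin3a, whose product damps the calcium flow of juvenile NMDA receptors, rose by a like amount at each step. It went from 10.7 ± 3.16 CPM at E12.5 through 22.9 ± 2.46 and 54.1 ± 10.01 to 139 ± 34.4 CPM at PND0. The steps were 1.08 (SE 0.17), 1.25 (SE 0.12) and 1.30 (SE 0.18). The gene Ppp3r2 lies within Grin3a on the same strand.

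**Figure D2:**
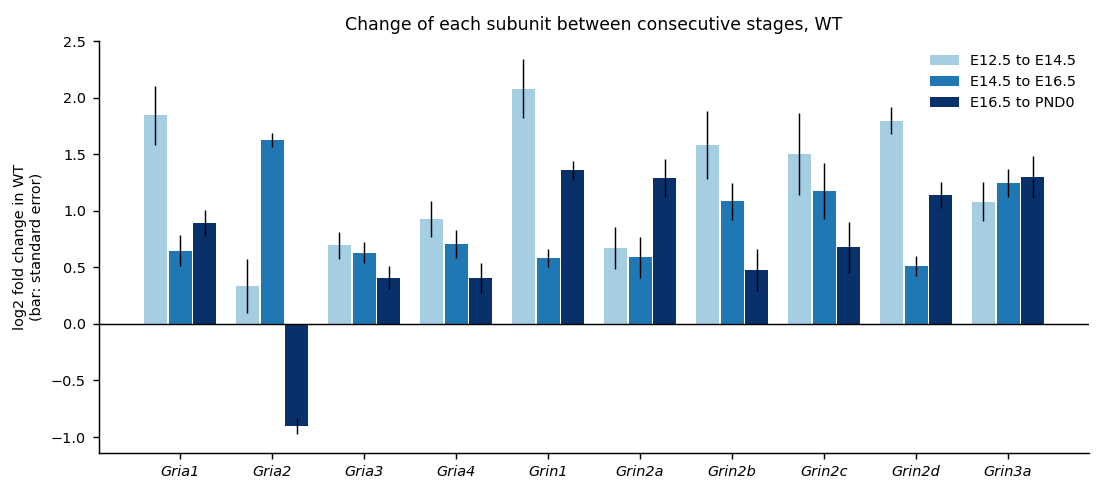
Log2 fold change of each subunit gene in WT between consecutive stages (vertical axis), with its standard error as the bar's line. Bars of 9 genes lie above 0 at all 3 steps, and Gria2 has the largest bar at the middle step (1.63) and the only one below 0 at the last (-0.90).

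Counted by step, 9 of 10 subunits passed the test from E12.5 to E14.5, all higher, beside 27.3% of all genes higher and 30.5% lower. From E14.5 to E16.5 all 10 were higher, beside 29.3% of all genes higher and 28.2% lower. From E16.5 to PND0, 8 were higher and Gria2 lower, beside 26.0% of all genes higher and 27.2% lower. In the pairs of stages added after seeing the data, all 10 were higher from E12.5 to E16.5 (29.2% of all genes higher, 30.0% lower) and all 10 from E14.5 to PND0 (30.6% higher, 30.2% lower).

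Levels of different genes were compared per kilobase of exon (CPM per kb of the union of annotated exons). In WT at E12.5 Gria2 came first at 12.2 ± 4.97 CPM per kb (SD, n = 4), without overlap with Gria1 (4.39 ± 1.94) in second place, and Gria1 and Gria4 (4.14 ± 1.16) overlapped. At E14.5 Gria1 (15.9 ± 0.974) and Gria2 (15.6 ± 1.08) overlapped at the top, which rests on this length: by longest transcript the Gria2 share was the higher. At E16.5 Gria2 was first again at 47.9 ± 2.64, ahead of Gria1 at 24.8 ± 5.17 with no overlap. At PND0 the order of this pair was the other one, with Gria1 at 48.0 ± 2.91 and Gria2 at 26.7 ± 0.620, again with no overlap. Below them at PND0, Grin2d (20.1 ± 3.17) overlapped with Gria4 (17.9 ± 2.35), and Grin1 (14.8 ± 0.692) with Grin2b (12.8 ± 2.54), which in turn overlapped with Grin3a (11.3 ± 2.81). Gria3 followed at 6.56 ± 0.756. Grin2c (0.982 ± 0.228) and Grin2a (0.770 ± 0.071) closed the order at PND0 and overlapped, as at E12.5 and at E14.5, but not at E16.5.

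Shares within a family do not depend on library scaling. Each count was divided by the gene's exon length, and the share of 1 gene in the summed family was taken in each library. The Gria2 share of the AMPA genes in WT was 49.7, 54.5, 56.3 and 53.1% at E12.5 and 36.7, 36.9, 37.0 and 36.0% at the next stage, E14.5. In the E16.5 libraries it was 49.3, 51.8, 57.0 and 54.4%, and in those of PND0 25.2, 27.3, 26.7 and 28.6%. The Gria1 share mirrored it, at 19.0 ± 1.81, 37.4 ± 0.575, 27.3 ± 4.10 and 48.4 ± 2.52% in order of stage. Dividing by the longest transcript moved the values: at E14.5 Gria2 then held 41.9 ± 0.432% and Gria1 31.1 ± 0.545%, in place of about equal shares, while at the other 3 stages the order of the pair was the one given here. With no length correction the mean share of Gria2 was above that of Gria1 at every stage, at 47.0 ± 1.79 against 32.9 ± 1.96% at PND0. The Gria2 shares of the E12.5 and E16.5 libraries overlapped, and lay above all those of E14.5 and PND0. The median ribosomal RNA share in WT was low at E12.5 and E16.5 and high at E14.5 and PND0. At all 3 steps the Gria2 share thus moved opposite to ribosomal RNA, and the Gria1 share moved with it. WT E16.5 replicate 1, with 3.75% of ribosomal RNA, had the lowest Gria2 share of its group (49.3%). The part of ribosomal RNA in these shares was not tested. Gria4 kept between 14.3 ± 2.73 and 18.8 ± 0.603%, and Gria3 between 5.24 ± 0.184 and 8.94 ± 2.87%.

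Of the GluN2 genes, Grin2d held 53.7 ± 9.12, 57.0 ± 2.26, 47.8 ± 7.41 and 58.0 ± 4.24% in WT in order of stage. Grin2b held 39.7 ± 10.03, 38.7 ± 1.83, 47.4 ± 7.16 and 36.8 ± 4.64%. The order of this pair rests on the length correction. Without it the mean share of Grin2b was above that of Grin2d at every stage, at 67.2 ± 4.20 against 28.7 ± 3.79% at PND0. Grin2a stayed between 1.63 ± 0.270 and 3.84 ± 0.656%, and Grin2c between 2.45 ± 0.938 and 3.20 ± 0.354%. WT E16.5 replicate 1 held 57.3% Grin2b and 37.5% Grin2d, whereas the other 3 libraries of its group held 41.4 to 47.9% and 47.2 to 53.8%. Within the 6 NMDA genes Grin1 held 16.7 ± 3.29, 22.7 ± 0.598, 19.5 ± 0.480 and 24.6 ± 2.66%, and Grin3a 17.3 ± 1.70, 11.4 ± 1.13, 15.5 ± 1.99 and 18.5 ± 2.83%. By longest transcript the Grin1 share was 26.6 ± 4.90, 35.4 ± 0.814, 31.0 ± 0.690 and 36.8 ± 3.41%, so its size depends on the length taken, whereas its order over the stages was the same. The length-scaled AMPA sum was 4.42 ± 0.357, 2.60 ± 0.081, 3.20 ± 0.160 and 1.65 ± 0.166 times the NMDA sum. At each step the mean Grin1 and Grin2d shares moved with the median ribosomal RNA share in WT. The mean Grin2b share and the AMPA to NMDA ratio moved opposite to it at each step, and the Grin3a share did so except at the last. From E12.5 to E14.5 the direction was unsure for Grin2b and Grin2d, whose libraries overlapped. Grin2b changed by -1.07 points (-5.37 to 2.73 with 1 library left out), and by 0.986 with no length correction. Grin2d changed by 3.295 points (-0.205 to 7.17 with 1 library left out). The part of ribosomal RNA in these values was not tested.

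These shares gave 70 comparisons, 30 between consecutive WT stages and 40 between genotypes. With 4 libraries against 4, the exact two-sided permutation test cannot go below p = 0.0286, and after Benjamini-Hochberg adjustment over the 70 comparisons the smallest value was 0.105, so none passed. At the smallest exact p lay 17 of the 30 WT comparisons. Among them were all 3 steps of the Gria1 and Gria2 shares, with a change for Gria2 of -16.8 percentage points at the first and -26.2 at the last, and all 3 steps of the Grin1 share (6.05, -3.21 and 5.08 points).

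**Figure D3:**
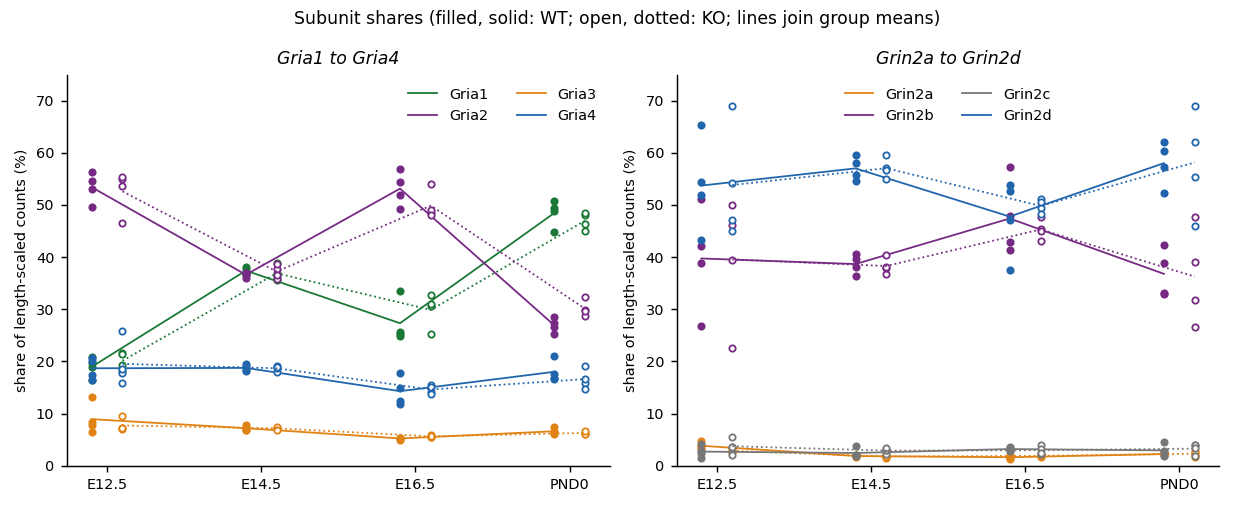
Share of each gene in the length-scaled counts of Gria1 to Gria4 (left) and of Grin2a to Grin2d (right), in percent, by stage. Points are libraries (filled WT, open KO) and lines join group means. Scaled by union exon length, Gria2 and Gria1 trade places, from 53.4 and 19.0% in WT at E12.5 to 26.9 and 48.4% at PND0. Grin2a and Grin2c stay below 6% in every library.

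No subunit gene was called different between KO and WT. At E12.5, 0 of 9 subunits tested were called (Grin2c did not pass the filter on low counts), beside 0.0177% of all genes, and 0 of 10 were called at E14.5 (0.527% of all genes), E16.5 (0.0462%) and PND0 (1.44%). At an unadjusted edgeR p under 0.05 stood 0, 1, 2 and 2 subunits in order of stage. Of all genes tested, 796 of 16948, 1557 of 17837, 2001 of 17328 and 3130 of 17420 stood there. DESeq2 called 0 subunits at each stage, beside 0.129, 1.13, 2.35 and 7.24% of the genes it adjusted. At E14.5 and E16.5 it gave no adjusted p for Grin2a and Grin2c. A p that misses the threshold does not show that the genotypes were alike. The standard errors of the log2 fold changes ran, by stage, from 0.16 to 0.51 (E12.5), 0.04 to 0.29 (E14.5), 0.07 to 0.22 (E16.5) and 0.07 to 0.25 (PND0). By edgeR fewer of all genes were called at E12.5 and E16.5 than at the other stages. DESeq2 called more at E16.5 than at E14.5 (150 against 122 genes).

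**Figure D4:**
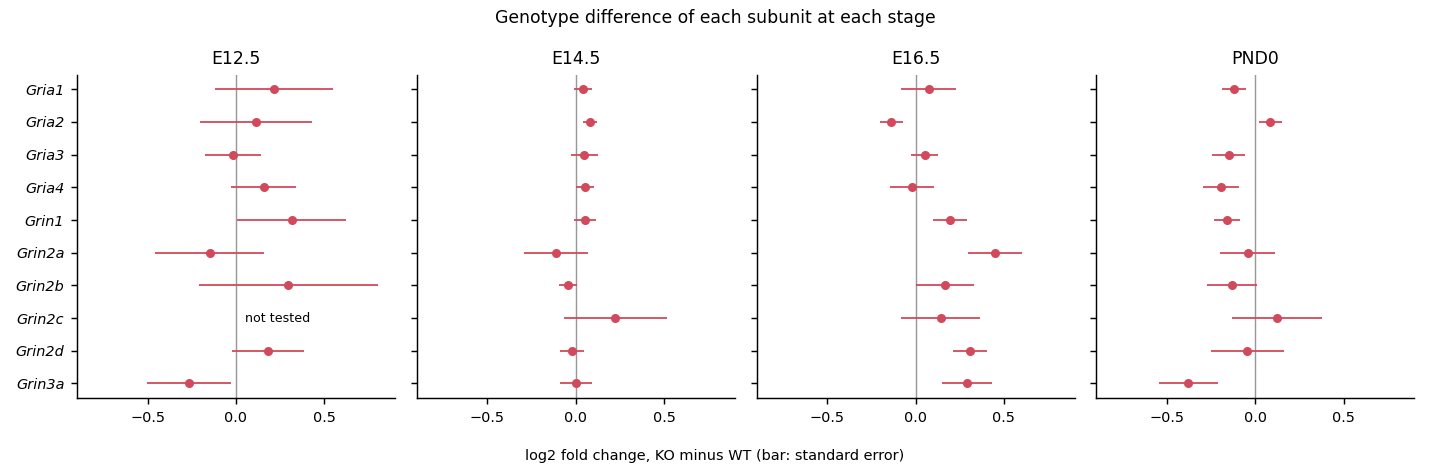
Log2 fold change of each subunit gene, KO minus WT, (horizontal axis, 1 panel per stage), with 1 standard error to each side as the bar. The longest bar is that of Grin2b at E12.5 (SE 0.51). At E16.5 the 3 points farthest right are Grin2a (0.45), Grin2d (0.31) and Grin3a (0.29), and at PND0 Grin3a lies farthest left (-0.38).

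At E12.5 the libraries of both genotypes were spread widely. Grin2b measured 10.97, 53.8, 35.1 and 69.3 CPM in KO replicates 1 to 4, a range that held all 4 WT libraries, and its difference was 0.29 (SE 0.51, adjusted p = 0.939). The other differences were 0.21 (Gria1), 0.11 (Gria2), -0.02 (Gria3), 0.16 (Gria4), 0.32 (Grin1), -0.15 (Grin2a), 0.18 (Grin2d) and -0.27 (Grin3a). The postmitotic neuron marker sum in WT was 2547, 3345, 4650 and 3934 CPM in replicates 1 to 4, the order of their Grin2b levels. In KO it was 3689, 4678, 4337 and 4296 CPM, lowest in replicate 1 as Grin2b was, but not in the same order among the other 3, where replicate 4 had the highest Grin2b level. Its part in the spread was not tested. WT replicate 1 also had the highest sums of skeletal muscle (131 CPM), meningeal (3090 CPM) and hindbrain or spinal cord markers (12.8 CPM) of the stage. KO replicate 1 had the 5.64% of ribosomal RNA. With both left out, an alternative added after seeing the data, 0 subunits were called again, and the differences lay between -0.20 for Grin3a and 0.38 for Grin2b.

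**Figure D5:**
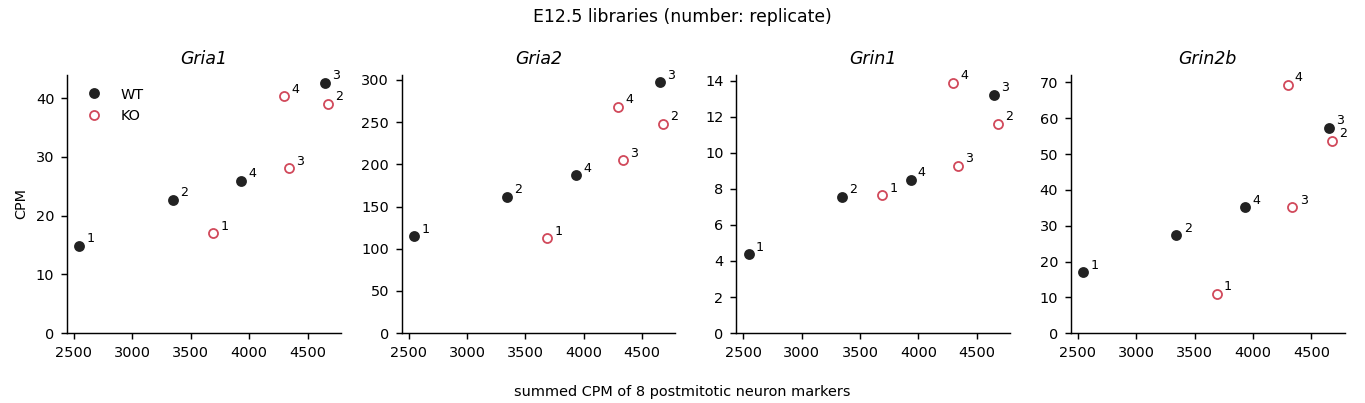
Level of 4 subunit genes (vertical axes, CPM) against the summed level of 8 postmitotic neuron markers (horizontal axis, CPM) in the 8 libraries of E12.5, numbered by replicate. In WT all 4 genes are lowest in replicate 1 and highest in replicate 3, and replicate 1 is also the lowest of the KO libraries for each gene.

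At E14.5, where replicates lay closest, the subunits' differences ran from -0.11 (Grin2a, SE 0.18) to 0.22 (Grin2c, SE 0.29). Between them lay Gria1 (0.04), Gria3 (0.05), Gria4 (0.05), Grin1 (0.05), Grin2b (-0.04), Grin2d (-0.02) and Grin3a (0.00). Gria2 was at 255, 268, 254 and 246 CPM in KO against 230 to 267 CPM in WT. The groups overlapped, and the difference of 0.08 (SE 0.04) had an unadjusted p of 0.0467 and an adjusted p of 0.568 by edgeR. It became 0.13 with an adjusted p of 0.0493 without WT replicate 2, the highest WT library.

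At E16.5 the NMDA genes lay higher in KO than in WT by a median of 0.24, and the AMPA genes by 0.02, against 0.00 over all genes tested. This was not particular to the NMDA genes. Metabotropic glutamate receptor genes had a median of 0.22, other ionotropic receptor genes 0.14 and auxiliary subunit genes 0.14. Scaffold and trafficking genes had 0.08 and transporter genes 0.07. Grin2a measured 5.73, 6.92, 4.91 and 4.10 CPM in WT and 7.48, 7.45, 7.73 and 7.14 CPM in KO. All KO libraries lay above all WT libraries, by the least between 6.92 and 7.14 CPM. The difference was 0.45 (SE 0.15, unadjusted p = 0.0109, adjusted p = 0.319), and Grin2a was the only subunit whose groups did not overlap when CPM were scaled within a stage. Over all genes, 2.63, 4.71, 6.47 and 11.8% had groups that did not overlap at E12.5, E14.5, E16.5 and PND0, so the members' 1 of 10 at E16.5 and 0 at the other stages are near the background. At 64 to 139 counts per library Grin2a was also among the thinly counted members.

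Grin2d measured 51.7, 68.7, 53.8 and 58.3 CPM in WT and 80.1, 68.1, 76.3 and 64.9 CPM in KO at E16.5. WT replicate 2 lay within the KO range, and the other 3 lay below it. The difference was 0.31 (SE 0.09, unadjusted p = 0.00689, adjusted p = 0.302). Without a filter on low counts it passed (0.31, adjusted p = 0.0018), where the count of all genes called went from 8 to 233. Grin3a (0.29, SE 0.14, adjusted p = 0.473) and Grin1 (0.19, SE 0.10, adjusted p = 0.462) lay on the same side. Gria2 lay on the other, at 643, 635, 710 and 733 CPM in KO against 691 to 789 CPM in WT (-0.14, SE 0.07, adjusted p = 0.435). The other 5 were Gria1 (0.07), Gria3 (0.05), Gria4 (-0.02), Grin2b (0.16) and Grin2c (0.14), with adjusted p of at least 0.74. Scaled by union exon length, the AMPA to NMDA ratio was 3.14, 3.04, 3.42 and 3.19 in WT. In KO it was 2.32, 2.58, 2.64 and 2.98, and the groups did not overlap. By longest transcript, or with no length correction, the groups overlapped. This ratio was 1 of several computed and is given with no test. At the other stages the genotypes overlapped in this ratio, at 1.46 to 1.82 in WT and 1.57 to 2.05 in KO at PND0. WT replicate 1 of this stage had the 3.75% of ribosomal RNA, and without it Grin2a was at 0.48 and Grin2d at 0.26. Erythroid markers summed to 667 to 1429 CPM in WT and 534 to 773 CPM in KO at this stage. Hindbrain and spinal cord markers summed, in order of replicate, to 0.716, 9.57, 0.479 and 0.384 CPM in WT. In KO they summed to 6.24, 1.72, 0.628 and 2.34 CPM. The part of these markers in the subunits' differences was not tested.

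At PND0 the subunits' differences ran from -0.38 to 0.12, with a median of -0.13 against 0.00 over all genes. Grin3a measured 133, 120, 189 and 112 CPM in WT and 101.4, 109, 128 and 87.1 CPM in KO. WT replicate 3 stood above the rest, and the groups overlapped. The difference was -0.38 (SE 0.17, unadjusted p = 0.0455, adjusted p = 0.266), and -0.20 (adjusted p = 0.501) without WT replicate 3. It passed without a filter on low counts (-0.37, adjusted p = 0.00575). Grin1 lay on the same side, at 139, 128, 127 and 119 CPM in KO against 135 to 151 CPM in WT (-0.16, SE 0.07, unadjusted p = 0.0477, adjusted p = 0.273). Gria1, Gria3 and Gria4 had differences of -0.12, -0.15 and -0.20 (adjusted p = 0.383, 0.423 and 0.334), and Grin2a, Grin2b, Grin2c and Grin2d of -0.04, -0.13, 0.12 and -0.05 (adjusted p of at least 0.678). Gria2 was at 423, 426, 431 and 476 CPM in KO against 400.0 to 421 CPM in WT (0.08, SE 0.07, adjusted p = 0.543). Those groups stood apart with scaling over 32 libraries and overlapped with scaling within the stage, at 400.1 to 448 CPM in KO against 378 to 403 CPM in WT.

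WT and KO brains at PND0 also differed in markers of other cells. Hindbrain and spinal cord markers summed to 1.28 to 8.64 CPM in WT and 0.240 to 0.528 CPM in KO, with 9 of the 10 markers at 0 in every KO library, of which 4 (Hoxb4, Hoxb6, Hoxc6 and Hoxd4) were also at 0 in every WT library. The only 1 of them tested, the glycine transporter gene Slc6a5, was lower by 3.14 on the log2 scale (adjusted p = 0.012, edgeR). Of 6 markers of GABA neurons only Gad2 was called, lower by 0.50 (adjusted p = 0.00631). Of the 6, 3 lay above 0 and 3 below, with a median of -0.02. Erythroid markers summed to 200.4 to 267 CPM in WT and 234 to 2296 CPM in KO. Choroid plexus markers summed to 295.5 to 596.9 CPM in WT and 596.3 to 950.6 CPM in KO, with a slight overlap. Cerebellum markers overlapped, at 209 to 322 CPM in WT and 146 to 308 CPM in KO. The part of these markers in the subunits' differences was not tested.

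Between genotypes, 2 of the 40 shares were at the smallest p the exact permutation test can give (p = 0.0286, adjusted p = 0.105). At PND0 the Gria2 share was 25.21, 27.32, 26.66 and 28.55% in WT and 29.86, 28.65, 29.66 and 32.26% in KO. Every KO library lay above every WT library, the closest being WT replicate 4 and KO replicate 2, and the means were 3.17 percentage points apart. At E16.5 the Gria3 share was 4.97 to 5.38% in WT and 5.50 to 5.93% in KO, with means 0.401 points apart. No GluN2 share differed at that level at any stage: at PND0 Grin2b held 36.8 ± 4.64% in WT and 36.3 ± 9.16% in KO, and Grin2d 58.0 ± 4.24% and 58.1 ± 9.79%.

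Whether the KO effect changed with stage was tested in 1 fit of all 32 libraries. None of the 10 subunits passed (adjusted p from 0.379 for Grin3a to 0.919 for Grin2c, edgeR), and 0.0256% of all genes were called. At an unadjusted edgeR p under 0.05 were 0 subunits, beside 2635 of all 19541 genes tested. DESeq2 was not run for this question.

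Beside the subunits, 56 further genes of glutamate signalling were followed, of which 55 were tested. In KO against WT edgeR called 0 at each of the 4 stages, with 0, 5, 8 and 16 at an unadjusted p under 0.05. Of all genes tested, 796 of 16948, 1557 of 17837, 2001 of 17328 and 3130 of 17420 had such a p. DESeq2 called 0 of 56, 0 of 46, 1 of 32 and 5 of 54 to which it gave an adjusted p. Over all genes the shares by DESeq2 were 2.35% at E16.5 and 7.24% at PND0, so these counts are near the background. Of these, named here after their values were seen, Shank3, a scaffold gene, was called at E16.5 (0.32, adjusted p = 0.00358 by DESeq2), and Cacng7 (0.33), Grm8 (-0.60) and Slc17a8 (-0.80) were among those called at PND0, with adjusted p of 0.00795, 0.0207 and 0.023 by DESeq2. By edgeR the adjusted p of Shank3 was 0.164 and of Cacng7 0.0513. In WT from E12.5 to PND0, 49 were higher and 4 lower. Of 8 other ionotropic receptor genes 7 were higher (median 1.71), and all 7 metabotropic genes tested were higher (median 2.76), led by Grm5 (4.83, from 5.15 to 146 CPM). Auxiliary subunits, which bind AMPA or kainate receptors and change their gating, rose in 12 of 13 cases (median 1.95). Shisa9 rose by 3.95, and only Cacng7 was lower, by 0.29. Of 15 scaffold and trafficking genes 13 rose and 1 fell: the kinase gene Camk2b rose by 3.93 and Dlg1, which encodes SAP97, fell by 0.73. All 7 transporter genes rose, with the neuronal transporter gene Slc1a1 at 3.81. Adarb1, the gene of the enzyme that edits the Gria2 pore codon, rose by 1.94 (SE 0.07), from 24.6 to 95.1 CPM, and without the dip that Gria2 had: its steps were 0.64, 0.36 and 0.88. Rest, the gene of a repressor of neuronal genes, fell by 2.25, and its partner Rcor1 by 0.29.

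By likeness of pattern, the subunits apart from Gria2 and Grin2c had many close correlates. Over the 16 WT libraries, which share depth and table by stage, the gene with the highest Pearson r of log2 CPM was Elmod1 for Gria1 (0.998), Rimbp2 for Grin1 (0.997), Cntn1 for Grin3a (0.996), Marchf4 for Grin2b (0.994), Cd200 for Gria4 (0.993), Caln1 for Gria3 (0.991), Rims3 for Grin2d (0.990) and Atp1b1 for Grin2a (0.989). Between 446 and 961 of 16108 genes lay over 0.95 for each of these 8. For Grin2c the number was 122, led by Pnpla3 (0.976). For Gria2 it was 28, led by B230334C09Rik (0.985), Zfp846 (0.983) and Stmn3 (0.982). The correlation of Gria2 with the other 9 subunits ran from 0.594 (Grin2a) to 0.818 (Grin2b), and among those 9 from 0.877 to 0.993.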

How the data were processed

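RNA of whole brains was sequenced as poly(A)-enriched, paired-end libraries, per the labels' protocols. The authors deposited 1 table per stage with read counts per gene. The submitters' processing notes name HISAT2, SAMtools, featureCounts, DESeq2 and the build mm10, with no versions. Aligner settings and the strand setting are not given in the sources used here.

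Library sizes were scaled by TMM and genes filtered with filterByExpr (a minimum count of 10 and a total of 15). Each stage's 8 libraries (KO against WT) and each pair of WT stages were tested with edgeR 4.0.16 (quasi-likelihood, robust) in R 4.3.3, with Benjamini-Hochberg adjustment over all genes tested and a threshold of 0.05. DESeq2 1.42.0 was an alternative. The change of the KO effect with stage was tested in all 32 libraries. Levels are CPM scaled over 32 libraries. Shares divide counts by union exon length (GENCODE M21) and were compared with exact permutation tests (scipy 1.17.1). Only the fit of KO against WT at E14.5 was tried on simulated data, with 1 spread for all genes taken from that stage. The other fits were not tried so. Replicates differed by more than sampling noise in every group, so none was a copy.

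The members and gene lists were chosen with earlier results of these data known. The rule for named genes took all 10 members and, of each other list, the members past the threshold in KO and the largest WT rise and fall past it, with the 3 genes most like each member, of which the text gives 1 to 3. Values of some genes on these lists are not reported here. Other alternatives were RLE scaling, no filter, the replicate number as a block, 1 fit of 32 libraries, covariates for ribosomal RNA and sex genes, length offsets, other gene lengths and each library left out in turn. Replicate numbers are shared by the groups, but same-numbered libraries correlated at -0.177 to 0.378 between genotypes and do not all deviate together, so the numbers were not taken as pairs.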

Additional observations from a re-analysis of the deposited data

Results flagged for a closer look

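In 11 of 160 groups of 4 libraries, 1 library stood far from the other 3 by Dixon's criterion, which chance alone meets in about 1 in 20 groups. Among levels, Gria2 was at 400.0 CPM in WT PND0 replicate 1 (the other 3 at 418 to 421 CPM) and at 475.7 CPM in KO PND0 replicate 4 (423 to 431 CPM). Gria3 was at 27.45 CPM in KO E14.5 replicate 4 (32.5 to 32.8 CPM), and Grin2a at 4.427 CPM in WT E14.5 replicate 1 (3.28 to 3.47 CPM).

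Among shares of the AMPA genes, Gria1 held 33.47% in WT E16.5 replicate 1 (24.9 to 25.6% in the others), the library with 3.75% of ribosomal RNA. Gria2 held 53.97% in KO E16.5 replicate 4 (48.1 to 49.0%). Gria3 held 9.448% in KO E12.5 replicate 1 (6.97 to 7.26%), the library with 5.64% of ribosomal RNA, and 6.575% in KO PND0 replicate 4 (6.18 to 6.24%). Grin2c held 3.845% of the GluN2 genes in WT E14.5 replicate 4 (1.84 to 2.13%). Of the NMDA genes Grin1 held 23.62% in WT E14.5 replicate 4 (22.4 to 22.5%) and 24.36% in KO E12.5 replicate 1 (17.8 to 18.2%). KO E12.5 replicate 1 and WT E14.5 replicate 4 each appear in 2 of these groups. KO PND0 replicate 4 also appears in 2 flagged groups, by its Gria2 level and its Gria3 share. The part of ribosomal RNA in the shares was not tested.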

How the results depend on the processing

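All 10 subunits were higher at PND0 than at E12.5 in WT under each alternative run, and the fall of Gria2 from E16.5 to PND0 stayed between -0.94 and -0.88 with any 1 library left out. Counts of all genes called in KO against WT depended on the setting. At E12.5 (3) they were 30 with DESeq2, 6 with the replicate block and 52 in 1 fit of 32 libraries. At E14.5 (94) they were 146 with no filter and 4 in 1 fit of 32. At E16.5 (8) they were 233 with no filter, 150 with DESeq2, 5 with the block, 3 in 1 fit of 32 and 4 with the sex-gene covariate. At PND0 (250) they were 1091 with no filter, 921 with DESeq2, 1205 in 1 fit of 32, 2 with the ribosomal RNA covariate and 48 with length offsets. For the change with stage (5) they were 11 with no filter and 1 with the block. With 1 library left out they ran from 1 to 5, 52 to 155, 3 to 14, 35 to 263 and 0 to 797 in that order, with 35 without WT PND0 replicate 3 and 797 without KO E12.5 replicate 1. The causes were not tested.

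Subunits called went from 0 to 1 at E16.5 with no filter (Grin2d), and from 0 to 1 at PND0 with no filter and with the replicate block (Grin3a, -0.37, adjusted p = 0.0428 by edgeR). They ranged from 0 to 1 at E14.5 with 1 library left out (Gria2). As pairing by number, the block also moved Grin2b from E16.5 to PND0 past the threshold (0.48, adjusted p = 0.000723) and changed no other subunit's call.

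Under other settings these differences changed sign. At E12.5 Gria3 was 0.0072 in 1 fit of 32, 0.043 with the ribosomal RNA covariate and 0.10 without replicate 1 of both groups, chosen after seeing the data. At E14.5 Grin2d was 0.046 with the ribosomal RNA covariate, and Grin3a was -0.000147 with RLE, -0.00536 with no filter, -0.000745 with DESeq2, -0.0031 with the block and -0.000679 in 1 fit of 32. At PND0 length offsets gave Grin2a 0.16, Grin2b 0.11 and Grin2d 0.057. Of the shares, Grin3a at E14.5 (KO minus WT) was -0.0816 points by longest transcript, and with no length correction Grin2b from E12.5 to E14.5 was 0.986 and Grin2c from E16.5 to PND0 0.064 points.

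With 1 library left out, ranges crossed 0 at E12.5 for Gria2 (-0.058 to 0.40), Gria3 (-0.13 to 0.074), Grin2a (-0.33 to 0.055) and Grin2b (-0.060 to 0.65). They did at E14.5 for Gria1 (-0.0030 to 0.091), Gria3 (-0.0033 to 0.14), Grin2b (-0.086 to 0.011), Grin2d (-0.068 to 0.032) and Grin3a (-0.069 to 0.092). They did at E16.5 for Gria1 (-0.015 to 0.23), Gria3 (-0.016 to 0.095), Gria4 (-0.088 to 0.14) and Grin2c (-0.098 to 0.27), and at PND0 for Grin2a (-0.15 to 0.056), Grin2c (-0.027 to 0.28) and Grin2d (-0.19 to 0.12). Shares and orders by level depend on the gene length: by longest transcript the WT share of Grin1 was 26.6 to 36.8%, against 16.7 to 24.6% by union exons. DESeq2 gave no adjusted p for Grin2a and Grin2c at E14.5 and E16.5. Depth limits Grin2c, at 3 to 14 counts in the WT libraries of E12.5, and the spread between libraries limits E12.5, where the biological coefficient of variation was 19.9% against 6.25% at E14.5.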
